A study of Mus musculus with 20 samples.

Results

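The comparison described here is the response of the left atrium to hyperoxia minus the response of the left ventricle, gene by gene, over all 20 of the 20 mouse libraries in the series. For each gene the log2 change from room air to hyperoxia was taken in the atrium, and the log2 change in the ventricle was subtracted from it. This value is called the difference of responses, and it is above 0 where the atrium rose more, or fell less, than the ventricle. The libraries are polyadenylated RNA of newborn C57BL/6J pups at postnatal day 4 and fall into 4 groups of 5. The hyperoxic atria and hyperoxic ventricles came from pups kept in 100% oxygen from birth, and the room-air atria and room-air ventricles from pups kept in 21% oxygen. Every litter was nursed by dams that changed places between the oxygen levels day by day. The study counts 5 individual mice in each group, but the sources used here do not say whether an atrium and a ventricle with the same number came from 1 mouse. The series asks in what way the chambers differ in their response to neonatal oxygen. Each library is RNA of a whole chamber, so fewer cells of a type and less RNA per cell cannot be told apart.

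The atrium is a thin-walled chamber that receives blood from the lungs and secretes natriuretic peptides, hormones that are released on stretch and that lower blood volume. The ventricle is the thick pumping chamber, and its own production of natriuretic peptides declines after birth. Cells answer a shortage of amino acids, oxidants and other insults through the integrated stress response, in which the transcription factor ATF4 turns on genes that make and import amino acids. DNA damage acts through p53, which turns on the cell cycle inhibitor p21, and misfolded protein acts through heat shock factors, which turn on chaperones.

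Levels below are in CPM, the reads of a gene relative to the scaled size of its library. They are given as mean ± SD (n = 5 libraries in every group), or for each library in order of its number, which runs from 1 to 5 except among the hyperoxic ventricles, numbered 1, 2, 4, 5 and 6. A gene passed where the adjusted p of edgeR's quasi-likelihood test was under 0.05, with Benjamini-Hochberg adjustment over 16598 genes, and every adjusted p below is of that kind. Log2 values carry their standard error (SE). A library held 26510081 to 38244117 counts in total. The light chain Myl7, which marks atrial muscle, was 4330 to 11400 CPM in the atria. Its ventricular partner Myl2 was 14300 to 28900 CPM in the ventricles. Some libraries stood apart. A length slope, the regression of a library's log2 CPM on the log2 exon length of the genes, is negative where short genes are over-represented. It was −0.294 and −0.289 in the hyperoxic atria numbered 2 and 4 and −0.225 in the room-air ventricle numbered 4, against −0.07 to 0.135 in the other 17 libraries. All 10 room-air libraries had more Y-linked than Xist reads, and so had hyperoxic atrium 2 and hyperoxic ventricles 2 and 6 but no other hyperoxic library. Myl7 was 530, 19.5, 310, 71.5 and 227 CPM in the room-air ventricles and 128, 48.5, 6.95, 2.66 and 8.78 CPM in the hyperoxic ventricles. Myl2 was 328 CPM in room-air atrium 1 and 5.59 to 22 CPM in the other 9 atria. Results that move with these measures are given with and without the libraries concerned. Exons of Nmrk2, Nppa, Cdkn1a, Hspa1a, Corin, Atp2a2, Gja5, Mybpc2, Myl4, Pi15 and several others named below share bases with a gene on the opposite strand, so their values are less certain than those of genes that stand alone.

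The chambers answered oxygen differently in 6060 of 16598 genes (36.5%). The difference of responses was above 0 in 2824 of them (17.0% of the genes tested) and below 0 in 3236 (19.5%), and it was at least 2-fold in 2069. The median over all genes tested was −0.06. Most of these genes moved in the atrium alone. Of the 6060 genes, 1941 rose and 2358 fell in the atrium without passing in the ventricle. The ventricle alone accounted for 250 genes that rose and 255 that fell there. A further 78 genes rose in both chambers and 66 fell in both, by different amounts, and 837 passed in neither chamber taken alone. The remaining 275 genes (1.66% of the genes tested) moved in opposite directions in the chambers. With the length slope of each library as a covariate, 2628 genes passed (1111 above 0 and 1517 below 0), and 1882 of the 6060 genes were among them with their sign. With the 3 libraries of steepest slope left out, 4442 genes passed. With the log2 ratio of Y-linked to Xist reads of each library as a covariate (below, the Y-linked reads or counts) 6492 passed, and 7055 did where only the libraries richer in Y-linked than in Xist reads entered, of which 1 is a hyperoxic atrium. Under the slope covariate 600 of the 6060 genes had the other sign, passing or not, and 691 had it with the Y-linked counts added.

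**Figure D1:**
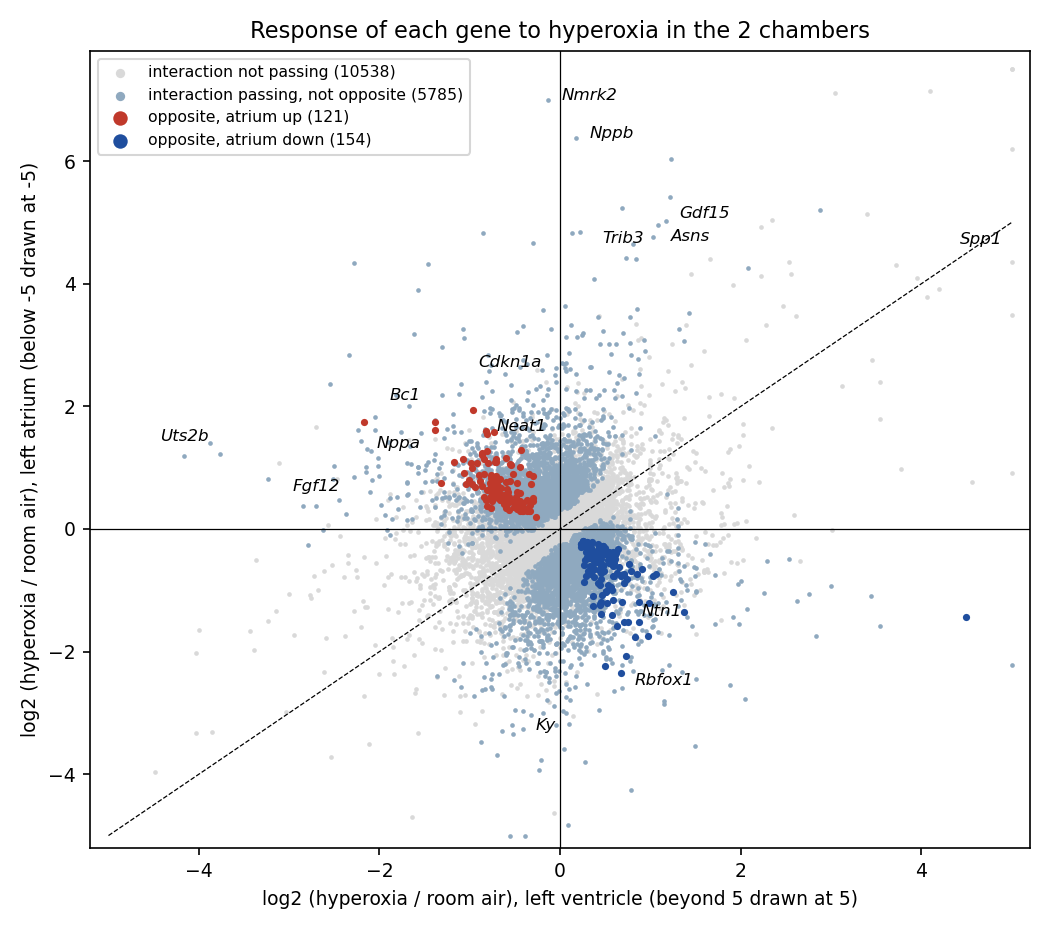
Log2 change from room air to hyperoxia in the left ventricle (x axis) and the left atrium (y axis) for the 16598 genes tested, where the dashed line marks equal responses. Grey points did not pass the test of the difference (10538 genes), and red and dark blue points are the 121 and 154 genes that moved in opposite directions, which lie in the upper left and lower right of the plot.

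Genes linked to stretch and wall stress stood at the top. The highest difference of responses belonged to Nmrk2 (chr10:81198170-81202051, minus strand, on GRCm38 as are all positions below), a muscle kinase that makes NAD from nicotinamide riboside. Nmrk2 was 14, 3.06, 8.02, 6.03 and 3.06 CPM in the room-air atria and 604, 1230, 860, 1150 and 526 CPM in the hyperoxic atria. In the room-air ventricles it was 237, 96.9, 145, 321 and 32.4 CPM, and in the hyperoxic ventricles 162, 50, 259, 62.5 and 227 CPM. The hyperoxic atria lay far above the room-air atria without overlap, whereas the ventricular groups overlapped across a wide range. The difference of responses was 7.13 ± 0.88 (adjusted p = 1.68e-05), made of 7 in the atrium and −0.13 in the ventricle.

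B-type natriuretic peptide, Nppb (chr4:147985788-147987205, plus strand), is a hormone that ventricular muscle releases under wall stress. It was 21.8, 17.8, 12.8, 11.6 and 15.9 CPM in the room-air atria and 1040, 1260, 1630, 1680 and 1030 CPM in the hyperoxic atria. The room-air ventricles had 288, 319, 202, 303 and 211 CPM and the hyperoxic ventricles 356, 121, 395, 272 and 359 CPM. In room air the atria were thus below the ventricles in every library, and in hyperoxia they were above them in every library. The difference of responses was 6.2 ± 0.37 (adjusted p = 9.78e-10), with 6.38 ± 0.31 in the atrium and 0.18 ± 0.24 in the ventricle (adjusted p = 0.639).

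Atrial natriuretic peptide, Nppa (chr4:148000722-148002079), the main hormone of the atrium, moved in opposite directions. It was 7480, 6120, 6470, 7830 and 6030 CPM in the room-air atria and 16200, 27200, 18400, 26800 and 15800 CPM in the hyperoxic atria, without overlap. In the ventricles it was 875, 1250, 406, 1520 and 847 CPM in room air and 567, 103, 464, 252 and 485 CPM in hyperoxia, where the ranges overlapped. The gene rose by 1.62 ± 0.35 in the atrium (adjusted p = 0.000687) and changed by −1.39 ± 0.35 in the ventricle (adjusted p = 0.0155), a difference of 3.01 ± 0.49 (adjusted p = 0.000113). The ventricular fall did not pass without the 3 libraries of steepest slope (adjusted p = 0.0541) or with the slope as a covariate (−0.92, adjusted p = 0.132). With the slope and Y-linked counts together in the model the difference itself was 1.72 (adjusted p = 0.089). In all, the opposite call of Nppa was lost in 7 of 34 other settings, among them ventricular Myl7 as a covariate.

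Of 25 natriuretic, stretch and Z-disc stress genes, 12 had a difference above 0, 3 below 0 and 10 did not pass, with a median of 0.59. Tnfrsf12a, the receptor of the cytokine TWEAK, rose from 31 ± 6.9 to 199 ± 38.1 CPM in the atrium and was 103 ± 13.1 and 106 ± 23.4 CPM in the ventricle. The difference for Tnfrsf12a was 2.64 ± 0.24 (adjusted p = 1.15e-07). Skeletal actin, Acta1, which the fetal and the strained heart express, had a difference of 2.7 ± 0.4 (adjusted p = 3.98e-05), from 17.1 to 65.9 CPM in the atrium. Against these, Corin, the protease that cuts the atrial peptide precursor into its active form, fell in the atrium from 132 ± 12.5 to 61.8 ± 7.33 CPM and rose in the ventricle from 59.4 ± 3.2 to 76.3 ± 10.4 CPM. Its difference was −1.45 ± 0.14 (adjusted p = 2.15e-07). The opposite call of Corin was lost in 8 of 34 other settings.

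Another vasoactive peptide gene stood among the highest, but on few ventricular reads. Uts2b, a peptide of the urotensin family, was 35.6, 21.9, 26.7, 33.4 and 35.7 CPM in the room-air atria and 36, 82.6, 70.5, 110 and 51.5 CPM in the hyperoxic atria. The room-air ventricles held 42 reads of Uts2b in all and the hyperoxic ventricles 2. Per scaled library size that is a ratio of 22.3 in favour of room air, with an exact 95% binomial interval of 5.81 to 190 that covers counting error only. The difference was 5.35 ± 1.33 (adjusted p = 0.00397), and its call was lost in 5 of 35 other settings. Among these were ventricular Myl7 as a covariate and leaving out the libraries over 100 CPM of the other chamber's light chain. What part atrial RNA had in the ventricular reads was not tested.

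Genes of the integrated stress response were also among the highest differences. Of 20 ATF4 target genes, 13 had a difference above 0 (against 17.0% of all genes), 1 below 0 and 6 did not pass, and the median was 1.49 against −0.06 over all genes. In the atrium 18 of the 20 rose, where 19.7% of all genes did, and in the ventricle 6 rose and 1 fell, where 5.64% and 5.28% of all genes did. Asparagine synthetase, Asns (chr6:7675169-7693254, minus strand), makes asparagine from aspartate. It was 4.45, 4.14, 3.83, 4.86 and 4.22 CPM in the room-air atria and 106, 155, 127, 151 and 125 CPM in the hyperoxic atria. The ventricles had 12.1, 8.2, 9.64, 9.2 and 7.27 CPM in room air and 20.7, 8.13, 30.9, 15.8 and 22.3 CPM in hyperoxia. Both chambers rose, by 4.95 and 1.08, and only in the ventricle did the oxygen groups overlap, with hyperoxic ventricle 2 inside the room-air range. The difference was 3.87 ± 0.32 (adjusted p = 4.99e-08).

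Trib3 (chr2:152337422-152344032, minus strand), a pseudokinase that restrains ATF4 signalling, behaved in the same way. It was 3.8, 2.52, 2.55, 2.92 and 3.67 CPM in the room-air atria and 68.9, 110, 74.1, 94.7 and 70.2 CPM in the hyperoxic atria. The ventricular values were 4.29, 4.06, 4.72, 4.19 and 5.05 CPM in room air and 8.69, 4.26, 13.1, 7.66 and 11.9 CPM in hyperoxia, again with hyperoxic ventricle 2 among the room-air values. The difference was 3.73 ± 0.31 (adjusted p = 4.99e-08). Gdf15, a secreted stress hormone, went from 1.5 ± 0.332 to 49.3 ± 11.9 CPM in the atrium and from 2.88 ± 0.314 to 6.47 ± 2.28 CPM in the ventricle, a difference of 3.86 ± 0.32 (adjusted p = 5.47e-08). Sesn2, a stress-induced inhibitor of the growth kinase mTORC1, differed by 1.86 ± 0.16 (adjusted p = 5.95e-08). Chac1, which degrades glutathione, rose in both chambers, by 5.21 and 2.88, with a difference of 2.34 ± 0.61 (adjusted p = 0.00565) that was lost in 3 settings. Ddit3, the transcription factor CHOP, rose in the atrium from 19.3 ± 2.6 to 111 ± 51.7 CPM and was 22.4 and 25.4 CPM in the ventricle, a difference of 2.34 ± 0.32 (adjusted p = 1.54e-05). The hormone Fgf21 rose in both chambers, and its difference of 1.74 ± 1.07 did not pass (adjusted p = 0.21). For Atf3, a partner of ATF4 in this response, the difference was 0.54 ± 0.23 and also did not pass (adjusted p = 0.0709).

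The enzymes that such factors serve moved with them. Of 12 genes of serine, one-carbon and proline synthesis, 10 had a difference above 0 and 1 below 0, with a median of 0.79. Mthfd2, the mitochondrial folate enzyme, rose from 14.8 ± 2.14 to 120 ± 13 CPM in the atrium and from 14.8 ± 2.82 to 22.7 ± 7.64 CPM in the ventricle, a difference of 2.39 ± 0.25 (adjusted p = 9.58e-07). Psat1, an aminotransferase of serine synthesis, differed by 1.24 ± 0.1 (adjusted p = 5.47e-08). Of 20 cytosolic aminoacyl-tRNA synthetases, which load amino acids onto tRNA, 18 had a difference above 0 and none below 0, with a median of 0.73. The seryl enzyme Sars rose from 88.1 ± 3.48 to 290 ± 43.3 CPM in the atrium and was 102 ± 12.3 and 104 ± 10.5 CPM in the ventricle. The glycyl enzyme Gars differed by 1.63 ± 0.18 (adjusted p = 1.68e-06). Of 12 amino acid transporters, 4 had a difference above 0 and 8 did not pass. Those 4 were the light and heavy chains of the leucine exchanger, Slc7a5 at 1.32 ± 0.17 (adjusted p = 1.16e-05) and Slc3a2 at 1.43 ± 0.13 (adjusted p = 1.71e-07), the glutamine carrier Slc1a5 at 0.37 ± 0.13 (adjusted p = 0.0256) and the cystine carrier Slc7a11 at 1.91 ± 0.59 (adjusted p = 0.0158). The calls of Slc1a5 and Slc7a11 were lost in 6 and 3 of 35 other settings, at adjusted p values up to 0.28 and 0.187. The counts above 0 for the ATF4 targets and the synthetases stayed within 1.5 times in every other setting. Those of the synthesis enzymes and the transporters left that range in 1 setting each, at 6 of 12 with the slope and Y-linked counts together in the model and at 2 of 12 where only libraries richer in Y-linked than in Xist reads entered.

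ATF4 is known to bind, with a partner, at composite sites of the form TGATGNAA. Windows upstream of 4 of these genes are printed 5′ to 3′ on the strand of the gene, to show the letters that these members share, with the motif in either orientation in capitals (RefSeq promoters, GRCm38.p6). A match is a description of the sequence only.
Asns, chr6:7693210-7693252, minus strand: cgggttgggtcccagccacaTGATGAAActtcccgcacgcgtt
Chac1, chr2:119351029-119351076, plus strand: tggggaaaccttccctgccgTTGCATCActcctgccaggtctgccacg
Slc7a11, chr3:50443633-50443699, minus strand: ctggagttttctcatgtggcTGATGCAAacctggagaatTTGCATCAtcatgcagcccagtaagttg
Gars, chr6:55037951-55037998, plus strand: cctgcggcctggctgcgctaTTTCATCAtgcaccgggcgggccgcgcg
The motif was searched on both strands from 250 bases before to 50 bases after each annotated start, and 3.97% of 32851 promoters held it. By gene it was found in 4.51% of the 27025 symbols of the table. It was in 7 of the 18 ATF4 targets that had a promoter there (38.9%), in 5 of 13 synthetases (38.5%), in 2 of 8 transporters (25%) and in 1 of 10 synthesis enzymes (10%). Asns and Gars carry it within 30 bases of the start, in opposite orientations, and Slc7a11 carries it in both orientations.

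DNA damage and protein folding genes are described next, which is not an order by size. Of 32 p53 targets, 20 rose in the atrium and 4 in the ventricle, and of 22 heat shock proteins and co-chaperones 19 and 5, against 19.7% and 5.64% of all genes. The p53 list had 18 members with a difference above 0, 4 below 0 and 10 that did not pass, with a median of 0.6. The cell cycle inhibitor p21, Cdkn1a, was 50.3, 42.6, 42.9, 44.4 and 46.5 CPM in the room-air atria and 252, 243, 260, 235 and 198 CPM in the hyperoxic atria. In the ventricles it was 78.6, 65.6, 69.7, 76.1 and 64.3 CPM in room air and 76.9, 48, 71.6, 70.4 and 76.2 CPM in hyperoxia. The atrial groups were wide apart and tight, and the ventricular groups overlapped. The difference was 2.44 ± 0.15 (adjusted p = 1.7e-09) and lay between 2.28 and 2.61 in all 35 other settings. Gadd45g, a growth arrest gene, rose from 28.5 ± 5.43 to 162 ± 53.4 CPM in the atrium and was 26.5 and 25.4 CPM in the ventricle. The death effector Bax had a difference of 2.06 ± 0.24 (adjusted p = 3.67e-06). Without hyperoxic ventricle 5, 2 p53 targets rather than 4 had a difference below 0.

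Of the 22 chaperone genes, 15 had a difference above 0 and 1 below 0, with a median of 0.42. The inducible chaperone Hspa1a was 2.52, 2.59, 2.45, 2.66 and 2.66 CPM in the room-air atria, and 14.2, 40.2, 30.2, 24.8 and 14.2 CPM in the hyperoxic atria. The room-air ventricles had 1.76, 2.39, 1.79, 3.29 and 1.82 CPM and the hyperoxic ventricles 2.06, 1.78, 2.84, 1.88 and 1.72 CPM. Only the hyperoxic atria stood apart. The difference for Hspa1a was 3.36 ± 0.36 (adjusted p = 1.21e-06), and its near-identical copy Hspa1b gave 2.94; reads that both share could be split between them by the counting, so the value for each is uncertain. The small heat shock protein Hspb1 rose from 88.5 ± 7.2 to 297 ± 81.7 CPM in the atrium and was 160 ± 30 and 134 ± 13.7 CPM in the ventricle, a difference of 2.01 ± 0.22 (adjusted p = 1.1e-06). Its relative Hspb8 moved in opposite directions, by 1.29 in the atrium and −0.43 in the ventricle (adjusted p = 0.0245). The opposite call of Hspb8 was lost in 8 of 34 other settings. With the slope and Y-linked counts together in the model, 8 of the 22 had a difference above 0.

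Heat shock factors bind inverted repeats of the letters GAA. Windows upstream of the genes for the chaperone and for the small heat shock protein are printed in the same way, with the core GAANNTTC, which reads alike on both strands, in capitals.
Hspa1a, chr17:34972233-34972280, minus strand: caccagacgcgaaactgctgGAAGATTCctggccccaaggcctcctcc
Hspb1, chr5:135887782-135887849, plus strand: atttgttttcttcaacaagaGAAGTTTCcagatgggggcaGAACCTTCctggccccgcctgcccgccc
That core was in 9.04% of the 27025 symbols (7.86% of the promoters) and in 11 of the 18 listed genes with a promoter in the table (61.1%). Hspb1 carries it at a pair of places.

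Of 27 NRF2 antioxidant targets, 14 had a difference above 0 and none below 0. The count was 9 above and 1 below 0 without the 3 libraries of steepest slope, and 7 above and 1 below 0 with the slope as a covariate. Sulfiredoxin, Srxn1, which repairs oxidised peroxiredoxins, was 17.9, 16.9, 15.4, 17.3 and 16.6 CPM in the room-air atria and 54.4, 48.3, 48.3, 47.8 and 39 CPM in the hyperoxic atria. The ventricles had 12.9, 12.1, 12.4, 16.3 and 13.2 CPM in room air and 15, 12, 23, 14.6 and 14.6 CPM in hyperoxia. All hyperoxic atria were above every other library. The difference was 1.26 ± 0.19 (adjusted p = 4.61e-05). Osgin1, an oxidant-induced growth inhibitor, differed by 2.76 ± 0.36 (adjusted p = 1.08e-05), from 1.15 to 8.44 CPM in the atrium and from 1.15 to 1.23 CPM in the ventricle.

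**Figure D2:**
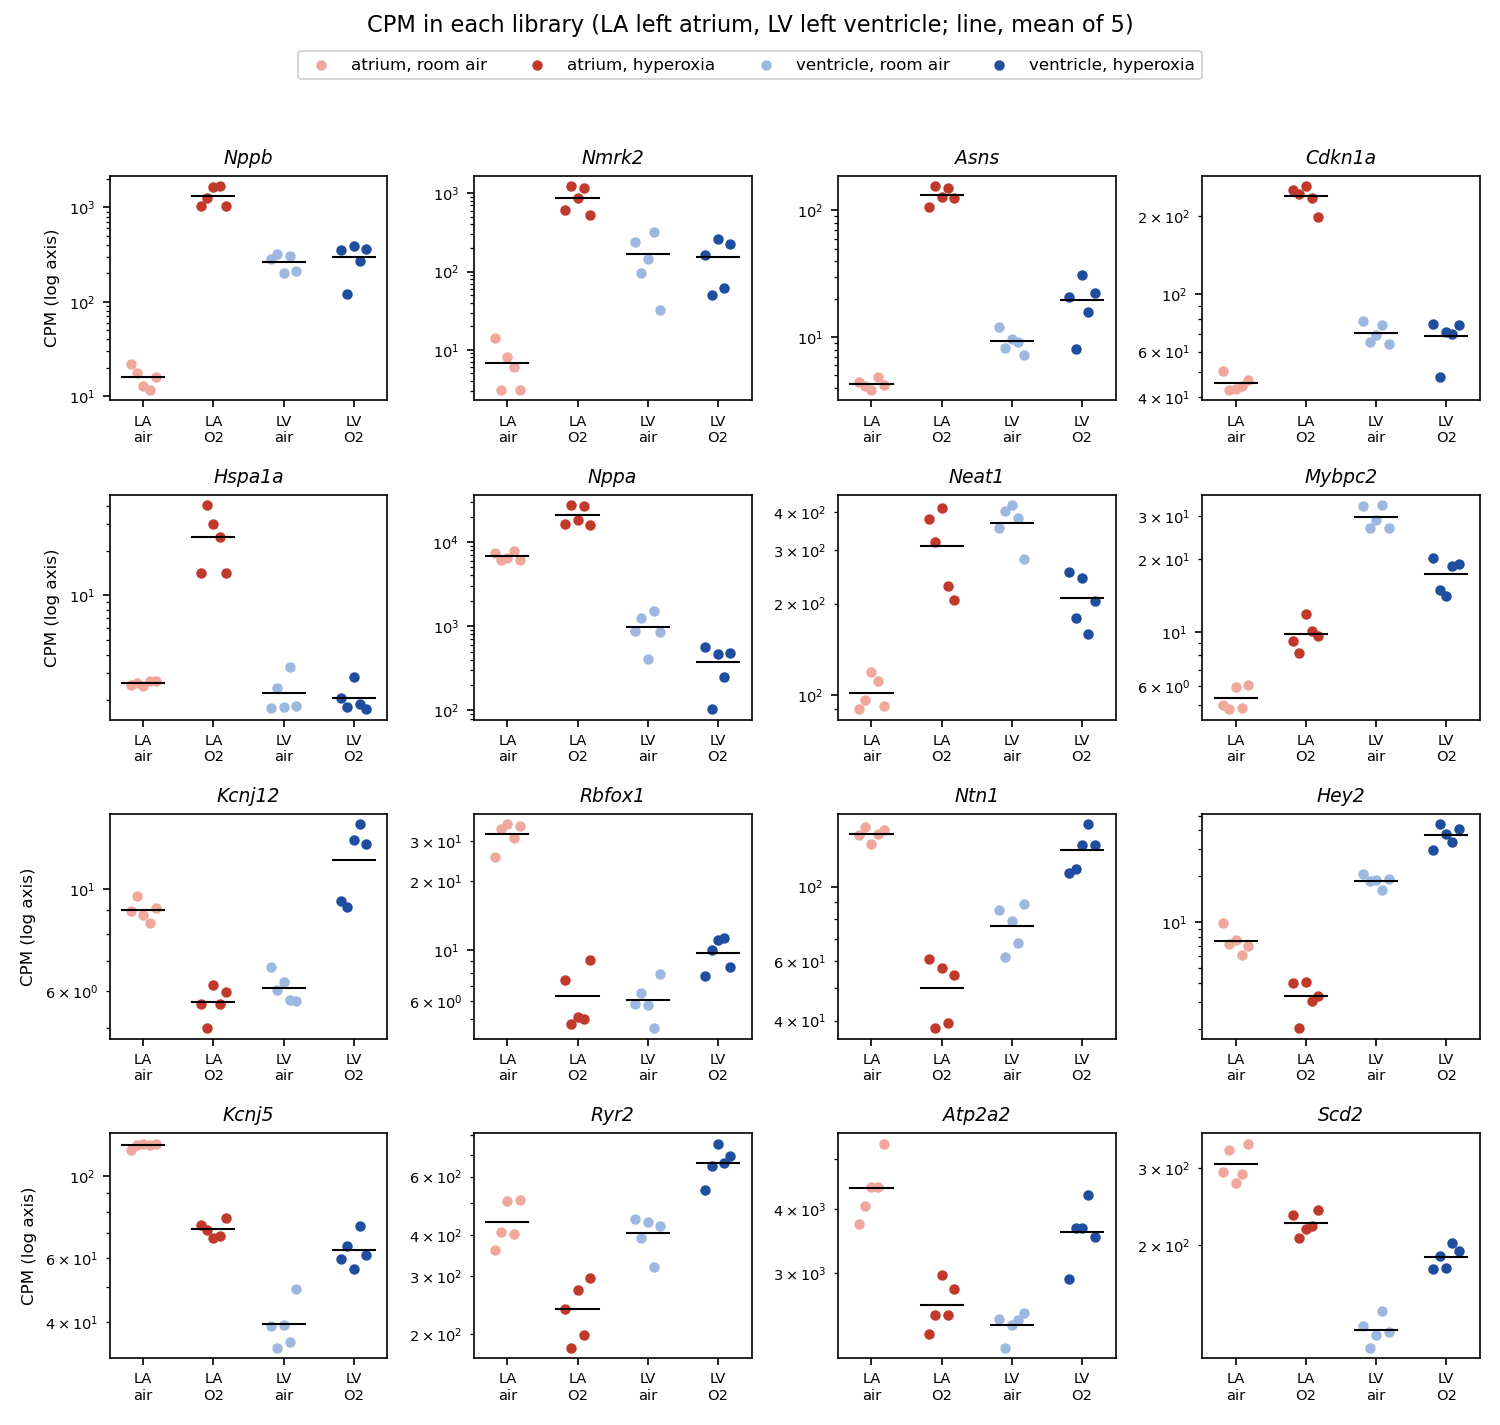
CPM (log axis) of 16 genes in each of the 20 libraries by chamber and oxygen level, with the mean of each group of 5 as a line. Nppb, Nmrk2, Asns, Cdkn1a and Hspa1a are raised in the hyperoxic atria, Nppa, Neat1 and Mybpc2 rise in the atrium and fall in the ventricle, and Kcnj12, Rbfox1, Ntn1, Hey2, Kcnj5, Ryr2, Atp2a2 and Scd2 do the reverse. The opposite call of Nppa was lost in 7 and that of Rbfox1 in 10 of 34 other settings.

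Other genes with high differences were low in 3 of the 4 groups. Cldn23, a tight junction protein, had 18 reads in the room-air atria and 1186 in the hyperoxic atria. Its difference was 4.81 ± 0.97 (adjusted p = 0.000795), and the call was lost without the libraries over 100 CPM of the other chamber's light chain (3.22, adjusted p = 0.233). Ptprv, a phosphatase-like receptor, differed by 3.2 ± 0.52 (adjusted p = 0.000108), and A2ml1, a protease inhibitor, by 3.58 ± 1.07 (adjusted p = 0.0132). The call of A2ml1 was lost in 4 of 35 settings (adjusted p up to 0.367). Rrp12, a ribosome assembly factor, rose in both chambers, from 10 ± 0.523 to 91.8 ± 13.7 CPM in the atrium and from 13.8 ± 3.28 to 22.4 ± 5.71 CPM in the ventricle.

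Genes with the lowest differences fell in the atrium, and some of them rose in the ventricle. Acss3, a mitochondrial enzyme that activates short fatty acids, was 9.78, 12.5, 11, 10.6 and 10.7 CPM in the room-air atria and 2.43, 2.29, 1.85, 2.81 and 3.65 CPM in the hyperoxic atria. The room-air ventricles had 4.57, 4.48, 4.32, 2.67 and 7.01 CPM and the hyperoxic ventricles 6.15, 11.2, 6.12, 9.51 and 5.23 CPM. The atrial groups were far apart, and the ventricular groups overlapped. The difference was −2.8 ± 0.32 (adjusted p = 2.82e-06), from −2.07 ± 0.23 in the atrium and 0.73 ± 0.23 in the ventricle (adjusted p = 0.0434), and the opposite call was lost in 21 of 34 other settings.

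The splicing regulator Rbfox1 was 25.6, 34, 35.5, 30.9 and 34.9 CPM in the room-air atria and 7.4, 4.79, 5.13, 5.02 and 9.12 CPM in the hyperoxic atria. In the ventricles it was 5.82, 6.49, 5.75, 4.56 and 7.87 CPM in room air and 7.74, 10, 11.1, 11.3 and 8.45 CPM in hyperoxia. The hyperoxic atria thus fell to the level of the ventricles. The difference was −3.02 ± 0.25 (adjusted p = 4.99e-08). Rbfox1 passed in opposite directions, but the ventricular groups overlapped at 7.74 and 7.87 CPM. That opposite call was lost in 10 of 34 other settings, among them the length slope as a covariate. Pi15, a secreted protease inhibitor, was 84.9, 97.2, 84.6, 71.7 and 103 CPM in the room-air atria and 16.3, 10.2, 11.5, 14.5 and 18 CPM in the hyperoxic atria. The ventricles had 17.9, 13.2, 18.3, 17.1 and 19 CPM in room air and 17.9, 16.8, 19.6, 14 and 16.6 CPM in hyperoxia. The ventricular groups overlapped with each other and with 3 of the hyperoxic atria, and the difference was −2.64 ± 0.2 (adjusted p = 2.88e-08). Ky, a muscle protein of the Z-disc, went from 5.34 ± 0.714 to 0.59 ± 0.246 CPM in the atrium and was 15.3 ± 3.33 and 16.4 ± 4.93 CPM in the ventricle, a difference of −3.28 ± 0.33 (adjusted p = 5.52e-07). Among the other lowest values were Clca3a2 at −2.98, a chloride channel regulator that fell in the atrium from 108 ± 14.2 to 8.38 ± 3.07 CPM, the ubiquitin ligase adaptor Klhl38 at −2.67, the phospholipase Pla2g5 at −2.66, the potassium channel subunit Lrrc55 at −2.63 and the membrane oestrogen receptor Gper1 at −2.59. The calcium channel subunit Cacng6 had 21 atrial reads in room air and 2 in hyperoxia, a ratio of 10.1 (exact 95% binomial interval 2.48 to 89.3), with a difference of −3.39 ± 0.86 (adjusted p = 0.00466).

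The ventricular transcription factor Irx4 was also among the lowest values, and 1 library carried it. It had 52 atrial reads in room air and 3 in hyperoxia, a ratio of 16.8 (exact 95% binomial interval 5.42 to 83.9), and room-air atrium 1 alone was at 1.45 CPM. The difference was −4.08 ± 1.5 (adjusted p = 0.0385), and it was 0.68 (adjusted p = 0.629) without that library, the atrium with 328 CPM of Myl2.

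Genes of calcium cycling and ion channels gave more calls below 0 than any other pathway list. Of 29 tested, 21 had a difference below 0 (against 19.5% of all genes), 2 above 0 and 6 did not pass, with a median of −0.8, and 8 moved in opposite directions. In the atrium 22 of the 29 fell (24.2% of all genes did), and in the ventricle 9 rose (5.64% of all genes). The count below 0 stayed within 1.5 times in every other setting, with 19 under the length slope as a covariate and 16 without the libraries over 100 CPM of the other chamber's light chain. Kcnj5 (chr9:32314707-32344350), a subunit of the atrial channel that acetylcholine opens, was 118, 122, 123, 122 and 123 CPM in the room-air atria and 73.5, 71.4, 68, 68.9 and 77.1 CPM in the hyperoxic atria. The room-air ventricles had 39, 34.1, 39.3, 35.4 and 49.4 CPM and the hyperoxic ventricles 59.7, 64.4, 55.8, 73.4 and 60.9 CPM. The oxygen groups were apart in both chambers. The difference was −1.43 ± 0.13 (adjusted p = 1.03e-07), with −0.76 ± 0.09 in the atrium and 0.67 ± 0.09 in the ventricle.

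Other inward rectifier potassium channels, which hold the resting potential of muscle, moved in the same way. Kcnj12 was 8.98, 9.65, 8.8, 8.46 and 9.1 CPM in the room-air atria and 5.64, 4.99, 6.2, 5.65 and 5.99 CPM in the hyperoxic atria. The ventricular values were 6.79, 6.04, 6.28, 5.75 and 5.71 CPM in room air and 9.44, 9.13, 12.8, 13.8 and 12.5 CPM in hyperoxia, and no oxygen groups overlapped in either chamber. Its difference was −1.57 ± 0.17 (adjusted p = 8.54e-07), and that of Kcnj2 was −1.72 ± 0.15 (adjusted p = 5.71e-08). The delayed rectifier Kcnh2 fell from 190 ± 8.14 to 80.2 ± 9.77 CPM in the atrium and rose from 88.6 ± 5.6 to 114 ± 18.2 CPM in the ventricle. Its partner in repolarisation, Kcnq1, differed by −0.99 ± 0.12 (adjusted p = 4.53e-06). The opposite calls of Kcnh2 and Kcnq1 were lost in 10 and 8 of 34 other settings.

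Calcium release and reuptake followed. The calcium release channel Ryr2 was 359, 409, 507, 401 and 510 CPM in the room-air atria and 239, 182, 272, 198 and 296 CPM in the hyperoxic atria. In the ventricles it was 448, 390, 438, 319 and 424 CPM in room air and 546, 647, 756, 660 and 691 CPM in hyperoxia. The hyperoxic atria were below every room-air atrium, and the hyperoxic ventricles above every room-air ventricle. The difference was −1.59 ± 0.19 (adjusted p = 5.3e-06). The calcium pump Atp2a2 was 3750, 4050, 4410, 4420 and 5370 CPM in the room-air atria and 2280, 2490, 2980, 2490 and 2790 CPM in the hyperoxic atria. The ventricular values were 2440, 2150, 2380, 2430 and 2510 CPM in room air and 2920, 3680, 3680, 4260 and 3530 CPM in hyperoxia. No oxygen groups overlapped in either chamber, and the difference was −1.36 ± 0.17 (adjusted p = 5.09e-06). Casq2, the calcium store protein, had a difference of −0.34 ± 0.14 that did not pass (adjusted p = 0.0648).

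Of 18 genes of the pulmonary vein sleeve, sinus node and conduction system, 11 had a difference below 0 and 1 above 0, with a median of −0.95. The number below 0 was 7 with the length slope as a covariate and 5 with the Y-linked reads added. The sodium channel Scn10a fell from 69.3 ± 6.8 to 19.8 ± 2.84 CPM in the atrium and was 5.2 ± 1.52 and 7.49 ± 4.04 CPM in the ventricle, a difference of −2.32 ± 0.34 (adjusted p = 3.57e-05). The connexin Gjc1 differed by −0.77 ± 0.11 (adjusted p = 1.79e-05), and Etv1, a transcription factor of fast conduction, by −1.13 ± 0.18 (adjusted p = 0.000121).

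Genes that tell the chambers apart did not move as a block. Of 20 atrial identity genes, 4 had a difference above 0 and 7 below 0, and of 20 ventricular identity genes 2 above and 7 below 0. The shares above 0 were not far from the 17.0% of all genes, and 19.5% of all genes were below 0. With the length slope as a covariate the atrial counts were 2 and 4, and with ventricular Myl7 as a covariate 2 and 10. The atrial connexin Gja5 was 225, 246, 226, 242 and 296 CPM in the room-air atria and 57.7, 88.2, 60.2, 88.5 and 71.1 CPM in the hyperoxic atria. The ventricles had 18.6, 18.8, 19.4, 26.7 and 18.3 CPM in room air and 22.5, 28.2, 22.5, 22 and 23.7 CPM in hyperoxia. The atrial groups were far apart and the ventricular groups overlapped. The difference was −1.98 ± 0.18 (adjusted p = 1.8e-07). Clusterin, Clu, an extracellular chaperone of the atrium, rose there from 303 ± 35.3 to 629 ± 102 CPM and fell in the ventricle from 111 ± 17.1 to 75.9 ± 15.6 CPM. The opposite call of Clu was lost in 6 of 34 other settings. Among these were ventricular Myl7 as a covariate and leaving out the libraries over 100 CPM of the other chamber's light chain. Hey2, a repressor that keeps ventricular muscle from atrial fate, was 9.83, 7.23, 7.68, 6.08 and 6.99 CPM in the room-air atria and 4.02, 2.01, 4.03, 3.03 and 3.28 CPM in the hyperoxic atria. In the ventricles it was 20.6, 18.6, 18.9, 16.3 and 19.2 CPM in room air and 29.5, 43.7, 37.9, 33.5 and 40.9 CPM in hyperoxia. Hey2 was lowest in the hyperoxic atria and highest in the hyperoxic ventricles, with no overlap between any of the 4 groups. The difference was −2.18 ± 0.22 (adjusted p = 5.07e-07).

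The 275 opposite genes split into 121 that rose in the atrium and fell in the ventricle (0.729% of the genes tested) and 154 that did the reverse (0.928%). Among them 87 moved by at least 1.5-fold in each chamber. The median exon length was 2284.5 bases in the first set and 6047.5 bases in the second, against 4092 bases over all genes tested. The count depended on the libraries and covariates. Of the 121 genes, 51 were opposite in the same way without the 3 libraries of steepest slope, 23 with the slope as a covariate and 53 without the libraries over 100 CPM of the other chamber's light chain. Of the 154 genes these numbers were 111, 70 and 31. All 3 conditions together left 11 and 25 genes, but these conditions do not include ventricular Myl7 as a covariate. With that covariate 10 of the 121 and 7 of the 154 genes were opposite in the same way. Neat1, Ryr2, Atp2a2, Ntn1, Efnb3, Cmya5 and Fgf13 were among the genes that lost the opposite call under it. Single libraries moved the 275 too: it was 414 when hyperoxic atrium 5 was left out, 110, 172 and 176 for hyperoxic ventricles 5, 6 and 4, and 131, 149 and 170 for room-air ventricles 4, 2 and 1. With the Y-linked reads as a covariate only Mybpc2 and Kcnj5 were opposite in the data, and these same genes were opposite in all 34 other settings that give a value for each chamber. All 121 and all 154 genes still passed the test of the difference there with their sign. All room-air libraries had more Y-linked than Xist reads, so only hyperoxic libraries lie on its other side.

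Mybpc2 encodes the fast isoform of myosin-binding protein C. It was 4.99, 4.8, 5.94, 4.84 and 6.04 CPM in the room-air atria and 9.19, 8.16, 11.8, 10.1 and 9.64 CPM in the hyperoxic atria. The ventricles had 33, 26.8, 29, 33.2 and 26.8 CPM in room air and 20.2, 14.9, 14.1, 18.6 and 19.1 CPM in hyperoxia. The rise in the atrium and the fall in the ventricle were both without overlap. The difference was 1.65 ± 0.17 (adjusted p = 7.64e-07). Neat1 (chr19:5824708-5845478), a nuclear noncoding RNA that builds paraspeckles, was 89.9, 96.1, 119, 111 and 92.3 CPM in the room-air atria and 379, 319, 411, 229 and 206 CPM in the hyperoxic atria. The ventricular values were 355, 403, 420, 382 and 280 CPM in room air and 254, 179, 243, 159 and 204 CPM in hyperoxia, again without overlap. Its difference was 2.43 ± 0.24 (adjusted p = 5.07e-07). The exons of Neat1 share bases with 3 other annotated genes on the same strand, and those of Scd2, Bax, Nme1, Pcolce, Pdgfra and Spp1 with 1, so reads could be split between them.

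The small cytoplasmic RNA Bc1 was 4.79, 4.36, 4.87, 3.49 and 4.19 CPM in the room-air atria and 9.11, 23.4, 9.79, 24.1 and 6.82 CPM in the hyperoxic atria. In the ventricles it was 9.13, 9.64, 6.71, 17.7 and 6.49 CPM in room air and 4.72, 3.1, 3.37, 2.95 and 4.75 CPM in hyperoxia. The atrial rise was largest in hyperoxic atria 2 and 4, the libraries of steepest slope, and the difference of 3.14 ± 0.45 (adjusted p = 3.4e-05) was 1.47 with the slope as a covariate. The other named genes that were opposite under all 3 conditions with the atrium up were Fkbp11, a folding enzyme of the endoplasmic reticulum, at 1.99 ± 0.27 (adjusted p = 1.88e-05), the DNA repair enzyme Mgmt at 1.87, the antiviral membrane protein Ifitm3 at 1.8, the translation regulator Cpeb1 at 1.75, Ccdc68 at 1.32 and the collagen processing enhancer Pcolce at 0.72.

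Further genes of this set were lost under at least 1 of the 3 conditions. The cytokine Mif was 111, 89.1, 98.5, 113 and 90.9 CPM in the room-air atria and 121, 267, 125, 225 and 109 CPM in the hyperoxic atria, where numbers 2 and 4 were highest. Its atrial change of 0.75 (adjusted p = 0.00827) was 0.24 without those libraries and room-air ventricle 4 (adjusted p = 0.174), so that its opposite call was lost. The ribosomal protein Rpl38 was 110, 89.7, 84.5, 118 and 88.1 CPM in the room-air atria and 128, 364, 146, 353 and 135 CPM in the hyperoxic atria. Its difference of 2.07 was 0.53 with the slope as a covariate. Rpl38 was still opposite there and without the 3 libraries, and lost that call without the libraries over 100 CPM of the other chamber's light chain. The nucleotide kinase Nme1 at 2.36, the sodium pump regulator Fxyd7 at 2.22, the calcium-binding Tesc at 2.11 and the methyltransferase-like Comtd1 at 2.08 completed the largest differences with the atrium up, and these 4 were opposite without the 3 libraries but not with the slope as a covariate.

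In the reverse set, netrin 1, Ntn1 (chr11:68209364-68400823), a guidance cue also made by heart muscle and vessels, was 142, 150, 134, 143 and 147 CPM in the room-air atria and 61.1, 37.9, 57.2, 39.4 and 54.5 CPM in the hyperoxic atria. The room-air ventricles had 85, 61.9, 79.2, 67.9 and 88.6 CPM and the hyperoxic ventricles 110, 113, 133, 153 and 133 CPM. Groups were apart in both chambers. The difference was −2.26 ± 0.18 (adjusted p = 4.99e-08). Efnb3, a ligand of Eph receptors, differed by −2.22 ± 0.21 (adjusted p = 2.15e-07), and Cmya5, a protein of the costamere, by −1.97 ± 0.16 (adjusted p = 4.99e-08). The desaturase Scd2 was 294, 330, 277, 290 and 341 CPM in the room-air atria and 235, 208, 218, 221 and 241 CPM in the hyperoxic atria. The ventricles had 131, 117, 125, 142 and 127 CPM in room air and 177, 189, 178, 202 and 194 CPM in hyperoxia. No oxygen groups overlapped, and the difference of −1 ± 0.11 (adjusted p = 1.68e-06) was small but tight. Hey2, Kcnj12 and Scd2 lost their opposite call only with the Y-linked reads as a covariate. The set also held the fibroblast growth factor homologue Fgf13 at −1.64, which modulates sodium channels, the muscle ubiquitin ligase Trim55 at −1.11, the dystrophin complex member Sspn at −1.16, the iron exporter Slc40a1 at −0.99, the lysophosphatidic acid receptor Lpar3 at −1.75 and the Wnt receptor Ror2 at −1.07. Asb15, Plppr3 and Scara5 had larger differences, at −2.59, −2.23 and −2.06, but were not opposite under all 3 conditions.

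**Figure D3:**
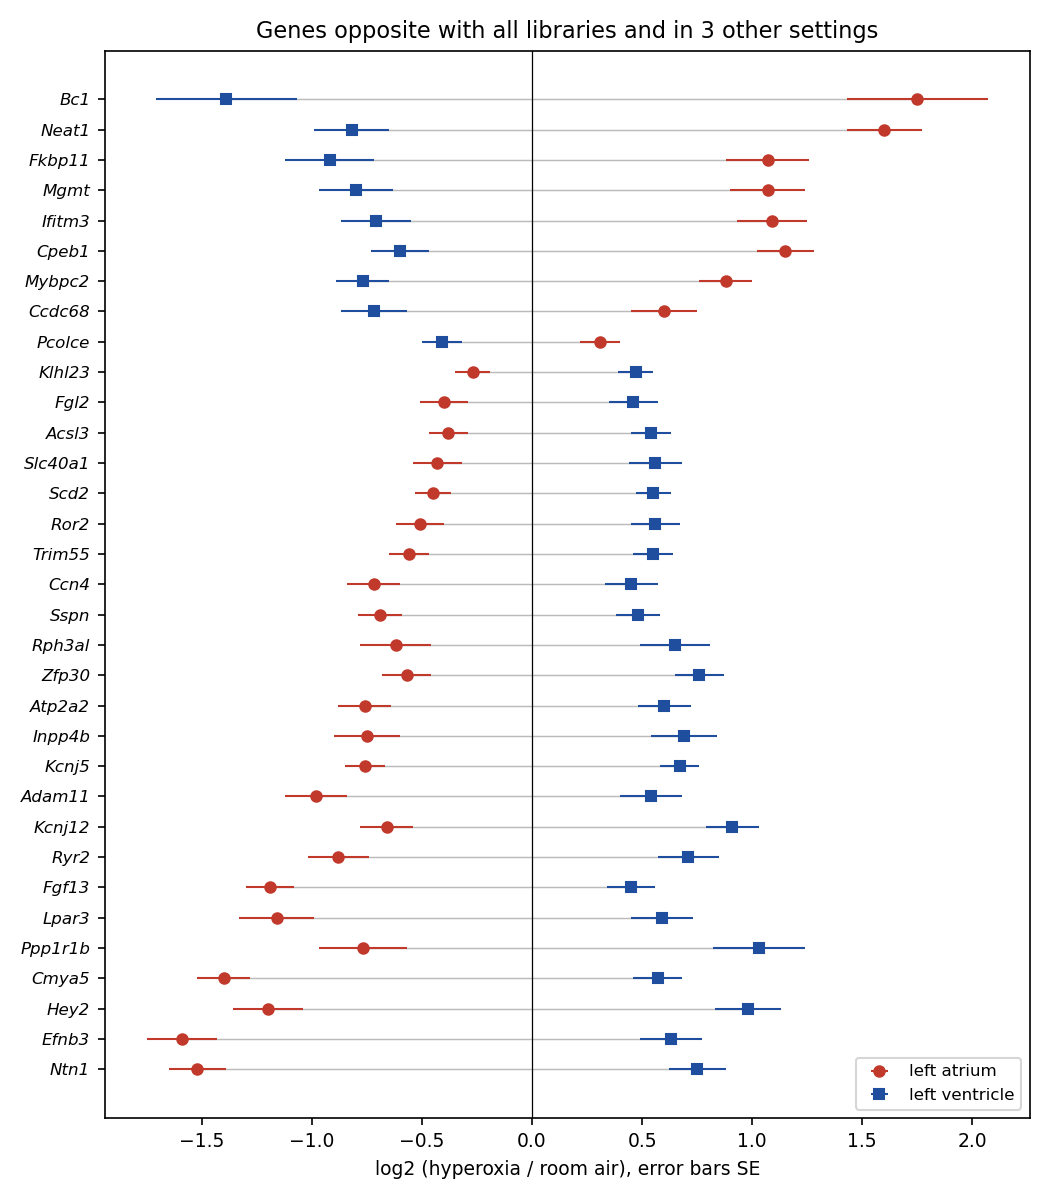
Log2 change from room air to hyperoxia (x axis, error bars SE) in the left atrium (red circles) and the left ventricle (blue squares) for 33 genes that moved in opposite directions with all libraries, without the 3 libraries of steepest slope, with the slope as a covariate and without the libraries over 100 CPM of the other chamber's light chain. The upper 9 rose in the atrium and the lower 24 fell there. No error bar crosses 0, because only genes that passed in each chamber are drawn. Ventricular Myl7 as a covariate is not among these settings, and under it 10 of the 121 and 7 of the 154 opposite genes kept their call.

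Ribosomal proteins and nuclear oxidative phosphorylation subunits have short transcripts, and the value of their lists moved with length. All 42 cytosolic ribosomal protein genes had a difference above 0, with a median of 1.35, and 39 of 47 nuclear oxidative phosphorylation genes did, with a median of 1.04. Without the 3 libraries of steepest slope these were 40 and 26, with medians of 0.69 and 0.41. With the slope as a covariate they were 14 and 2, with medians of 0.27 and −0.01. Many ribosomal protein genes have processed copies in the genome, so the counting could split their reads. Rps19, a small subunit protein, differed by 1.61 ± 0.29 (adjusted p = 0.000323), and the muscle oxidase subunit Cox6a2 by 1.65 ± 0.3 (adjusted p = 0.000374). Over 10 bins of exon length the median difference ran from 0.67 in the shortest genes (median 904 bases) to −0.41 in the longest (median 12061 bases). Of the shortest genes 32.9% passed above 0 and 2.76% below 0, and of the longest 3.99% and 40%. Of 8 mitochondrially encoded mRNAs 0 passed in edgeR, 1 had an unadjusted p under 0.05, DESeq2 and limma called 1 each above 0, and the median was 0.08.

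**Figure D4:**
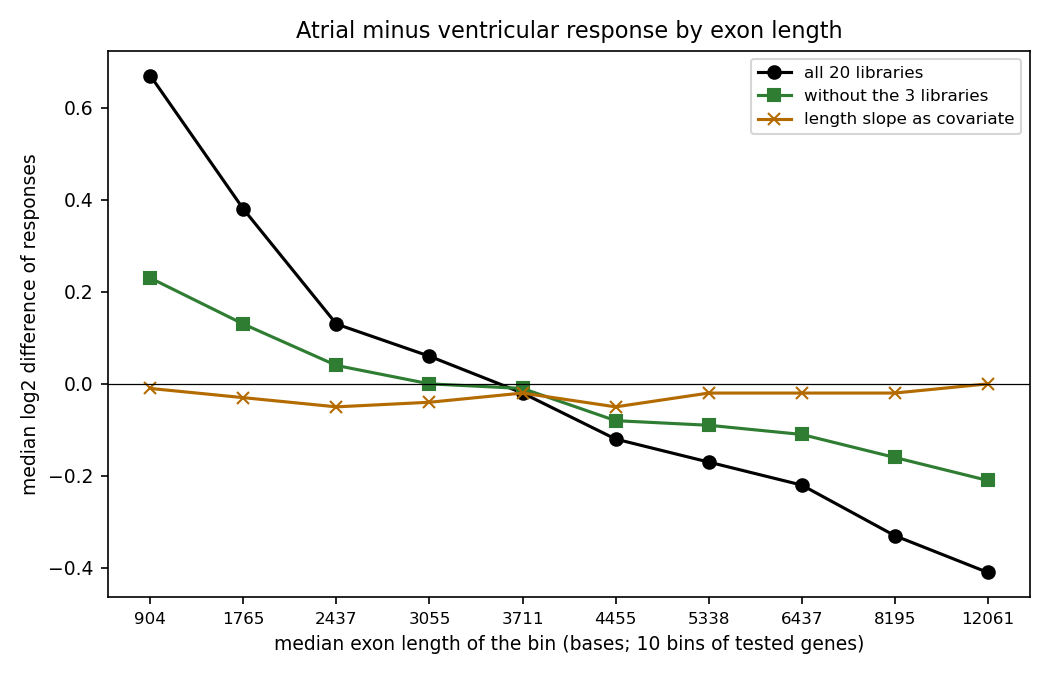
Median difference of responses (y axis, log2) in 10 bins of tested genes ordered by exon length (x axis, median length of the bin in bases), with all 20 libraries, without the 3 libraries of steepest length slope, and with the slope as a covariate. The line falls from 0.67 to −0.41 with all libraries, from 0.23 to −0.21 without the 3, and stays between −0.05 and 0 with the covariate, which removes such a trend by its construction.

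Genes that moved in the ventricle alone were fewer, and several are atrial genes. Fgf12, a sodium channel modulator of the atrium, averaged 207 and 266 CPM in the room-air and hyperoxic atria. It was 12.9, 0.493, 7.91, 1.56 and 7.24 CPM in the room-air ventricles and 2.93, 0.851, 0, 0.162 and 0.402 CPM in the hyperoxic ventricles. The room-air ventricles with the most Fgf12, numbers 1, 3 and 5, were those with the most Myl7. The difference was 3.07 ± 0.9 (adjusted p = 0.0137), and without the libraries over 100 CPM of the other chamber's light chain the ventricular change was −1.51 (adjusted p = 0.142). The atrial light chain Myl4 was 478, 44.8, 277, 89.3 and 222 CPM in the room-air ventricles and 131, 58.6, 16.6, 26.5 and 26.9 CPM in the hyperoxic ventricles. Its difference of 2.7 ± 0.75 (adjusted p = 0.0091) was lost in 5 of 35 settings, and the ventricular change without those libraries was −1.06 (adjusted p = 0.118). Mybphl, another atrial muscle protein, had a difference of 2.6 ± 0.97 (adjusted p = 0.0447) that was lost in 27 settings. Myl7 itself, at 2.64 ± 1.19, and Myl2, at −2.35 ± 1.2, did not pass (adjusted p = 0.0912 and 0.134).

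Other genes passed in the ventricle alone. The bradykinin receptor Bdkrb2 fell in the ventricle from 5.8 ± 0.909 to 1.49 ± 0.856 CPM, with a difference of 2.18 ± 0.6 (adjusted p = 0.00748). The matricellular protein Ccn5 differed by 1.91 ± 0.49 (adjusted p = 0.00519) and the histone H2bc4 by 1.4 ± 0.32 (adjusted p = 0.00224). Rises in the ventricle were led by Klhl11, an adaptor of ubiquitin ligases, from 2.67 ± 0.813 to 6.63 ± 1.7 CPM, and by Hif3a, an inhibitory hypoxia-inducible factor, from 2.41 ± 0.552 to 5.91 ± 1.16 CPM, with differences of −1.4 ± 0.39 (adjusted p = 0.00905) and −0.94 ± 0.31 (adjusted p = 0.0221). Ppp1r3a, which directs a phosphatase to glycogen, differed by −1.27 ± 0.27 (adjusted p = 0.00145), Syne3, a nuclear envelope protein, by −1.43, Prepl, a peptidase-like protein, by −1.18 and Serac1, a lipid remodelling protein, by −1.12. Each of these genes lost its call in 2 to 9 of 35 settings.

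Several vessel and stromal genes fell more in the atrium. Vitronectin, Vtn, a matrix protein made by pericytes, was 2.21, 2.35, 2.76, 3.03 and 4.07 CPM in the room-air atria and 0.372, 0.538, 0.292, 0.639 and 0.542 CPM in the hyperoxic atria. The ventricles had 13.9, 12.9, 13.1, 18.8 and 15.3 CPM in room air and 8.45, 12.9, 7.11, 8.5 and 6.91 CPM in hyperoxia. It fell in both chambers, and the ventricular groups touched at hyperoxic ventricle 2. The difference was −1.86 ± 0.3 (adjusted p = 0.000121). Rgs5, a pericyte regulator of G proteins, fell from 388 ± 41.3 to 101 ± 20.3 CPM in the atrium and from 605 ± 57.4 to 464 ± 45.1 CPM in the ventricle, a difference of −1.56 ± 0.17 (adjusted p = 1.63e-06). Ankrd37, a hypoxia-induced gene, differed by −1.76 ± 0.31 (adjusted p = 0.000214), the amine oxidase of vessel walls Aoc3 by −1.59 ± 0.17 (adjusted p = 1.24e-06) and the nuclear factor Aff3 by −1.43 ± 0.15 (adjusted p = 1.07e-06). On the linear scale the order of such falls can turn, because Ankrd37 and Vtn start higher in the ventricle.

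Markers of cell types were read the same way, beside the 19.5% of all genes below 0 and the 17.0% above. Of 9 pericyte markers 7 had a difference below 0 and none above, of 13 fibroblast markers 7 and none, and of 18 endothelial markers 5 below and 2 above. The endothelial shares were near those of all genes. The pericyte count was 4 without the libraries over 100 CPM of the other chamber's light chain. The endothelial count below 0 was 2 when hyperoxic atrium 2, hyperoxic ventricle 5 or room-air ventricle 4 was left out, and 3 when hyperoxic atrium 4, hyperoxic ventricle 2 or any of room-air atria 1, 2, 3 and 5 was. For the endothelial list the larger side was not stable: 3 were below and 3 above 0 with the length slope as a covariate, 2 and 1 with ventricular Myl7, and 1 and 2 without the libraries over 100 CPM of the other chamber's light chain. Pericyte markers in sum were 753 to 943 CPM in the room-air atria, 343 to 573 CPM in the hyperoxic atria, 1220 to 1510 CPM in the room-air ventricles and 1120 to 1250 CPM in the hyperoxic ventricles. Fibroblast markers summed to 8130 to 8970, 4040 to 5590, 2890 to 4050 and 2740 to 3420 CPM in the same order. Both sums were lower in the hyperoxic than in the room-air atria without overlap, and the ventricular ranges overlapped. Endothelial markers summed to 2050 to 2350, 1500 to 1820, 4710 to 5660 and 3270 to 3580 CPM in that order. The endothelial sum was thus lower in hyperoxia without overlap in both chambers. The receptor Pdgfra of fibroblasts differed by −1.3 ± 0.2 (adjusted p = 6.19e-05), the endothelial receptor Kdr by −1.04 ± 0.21 (adjusted p = 0.000762) and the sialomucin Emcn by 0.93 ± 0.13 (adjusted p = 3.39e-05). Of 34 collagen and fibrosis genes 12 were below 0 and 3 above, led by Timp1 at 1.33 above and Col6a3 at −1.42 below. With the length slope as a covariate these counts were 7 and 9. The median exon length of this list was 7008 bases. In the length bins of median 6437 and 8195 bases, 28.3% and 34.2% of genes passed below 0. Of 14 elastic fibre genes 6 were below 0 (3 with the covariate), among them Ltbp1 at −1.4 ± 0.15 (adjusted p = 7.64e-07). Of 22 genes of VEGF, apelin and angiopoietin signalling, 8 were below 0 (4 with the covariate) and 2 above. What part the fibroblast, pericyte and endothelial sums have in these values was not tested.

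Inflammatory lists are given beside the 17.0% of all genes that were above 0. Of 15 resident macrophage markers 4 had a difference above 0 (1 with the length slope as a covariate), and of 13 markers of lipid-associated macrophages 6 above (1 with it) and 1 below. Resident macrophage markers summed to 243 to 260 CPM in the room-air atria and 310 to 491 CPM in the hyperoxic atria, and to 118 to 159 and 157 to 187 CPM in the ventricles. No marker of the list was without reads. Cd68, a lysosomal protein of macrophages, differed by 1.26 ± 0.21 (adjusted p = 0.00017) and galectin 3, Lgals3, by 1.7 ± 0.25 (adjusted p = 3.39e-05). Of 22 chemokine, cytokine and adhesion genes, 5 had a difference above 0 and 1 below. The shares above 0 of the resident macrophage and chemokine lists were close to that background. Above 0 were the cytokine Lif at 2.48 ± 0.41 (adjusted p = 0.000141), the receptor Osmr at 1.47 ± 0.21 (adjusted p = 2.59e-05) and the adhesion molecule Icam1 at 1.12 ± 0.15 (adjusted p = 1.41e-05), and below 0 was the chemokine Cxcl12 at −1.08 ± 0.13 (adjusted p = 5.88e-06). The number above 0 rose to 8 when hyperoxic ventricle 4 was left out, and leaving out room-air ventricle 2 gave 3. Of 24 interferon-stimulated genes 9 were above 0, led by Ifit3 at 2.14 ± 0.38 (adjusted p = 0.000252). That number was 2 with the length slope as a covariate, 3 without the 3 libraries of steepest slope, and 5 without hyperoxic atrium 2, room-air atrium 3, room-air ventricle 2 or room-air ventricle 4 each in turn. The part of macrophage RNA in these values was not tested. The osteopontin gene Spp1 and Gpnmb, which rose in both chambers, did not pass the test of the difference, at −0.68 ± 0.7 (adjusted p = 0.465) and −0.3 ± 0.52 (adjusted p = 0.688).

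Lipid, growth and clock genes gave mixed counts. Here and in the next paragraph they stand beside the shares of all genes, 17.0% above 0 and 19.5% below. Of 23 lipogenic genes and regulators, 11 were below 0 and 4 above, with 7 below and 1 above under the length slope as a covariate and 7 below without hyperoxic ventricle 5. Fatty acid synthase, Fasn, fell from 64.3 ± 5.07 to 45.9 ± 12.3 CPM in the atrium and rose from 54.3 ± 3.62 to 74.3 ± 7.85 CPM in the ventricle, a difference of −0.94 ± 0.19 (adjusted p = 0.000946). The opposite call of Fasn was lost in 13 of 34 settings, and with the slope and Y-linked counts together in the model the difference was −0.34 (adjusted p = 0.126). The desaturase Scd1 had a difference of −0.14 ± 0.18 that did not pass (adjusted p = 0.571). Adipocyte markers summed to 165 to 219 and 57.7 to 134 CPM in the room-air and hyperoxic atria and to 1490 to 2700 and 827 to 1200 CPM in the ventricles. Of 10 adipocyte markers 3 were tested, Pparg, Cidea and Fabp4, and 2 were above 0. Fabp4 is also on the endothelial list, so the sum is not particular to adipocytes. The part of these markers in the lipogenic values was not tested. Of 19 cholesterol genes 5 were below 0 and 3 above, both near the shares of all genes. Those numbers were 2 and 0 with the length slope as a covariate, 3 genes were below 0 without hyperoxic ventricle 5, and 1 was above 0 without room-air ventricle 4. Of 36 genes of fatty acid uptake and oxidation 11 were above 0 and 4 below, and 3 and 9 with the covariate. Without hyperoxic ventricle 5 the fatty acid list had 2 genes below 0.

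Of 34 genes of the G1/S transition and DNA replication, 10 were below 0 and 1 above, with 5 below without hyperoxic ventricle 5. In the ventricle 10 of the 34 rose and in the atrium 2, against 5.64% and 19.7% of all genes. The helicase subunit Mcm2 was 58.3 ± 7.05 and 60.5 ± 3.65 CPM in the atrium and rose from 62.5 ± 5.96 to 87.3 ± 9.64 CPM in the ventricle, a difference of −0.43 ± 0.13 (adjusted p = 0.016). Of 28 genes of mitosis and cytokinesis, 10 were below 0 and none above. That number was 1 with the length slope as a covariate and 5 without hyperoxic ventricle 5. Without the libraries over 100 CPM of the other chamber's light chain 6 were below and 4 above. The proliferation marker Mki67 differed by −0.56 ± 0.16 (adjusted p = 0.0105). Of 19 clock genes 7 were below 0 and 4 above, and of 16 glucocorticoid-responsive genes 6 below and 4 above. Hlf, a clock output factor, differed by −1.47 ± 0.16 (adjusted p = 1.63e-06), the clock repressor Per1 by −1.03 ± 0.37 (adjusted p = 0.0329) with its call lost in 15 settings, and the phosphatase Dusp1 by −1.59 ± 0.22 (adjusted p = 1.72e-05). Of 31 genes of glycolysis and hypoxia-inducible factor targets 7 were below 0 and 5 above, and Vegfa did not pass at 0.5 ± 0.21 (adjusted p = 0.06). For glycolysis both shares were near the background, and 8 genes were above 0 without room-air ventricle 3. Without hyperoxic ventricle 5, 3 glucocorticoid-responsive genes were below 0. The clock list had 2 genes above 0 when any of hyperoxic atrium 4, hyperoxic ventricles 1 and 2, room-air atria 2 and 4 and room-air ventricles 1, 4 and 5 was left out.

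The remaining lists are given by their counts, where 36.5% of all genes passed. Of 20 endoplasmic reticulum stress and folding genes 2 were above 0 and 2 below. Of 25 sarcomere genes 7 were above 0 and 4 below, and with the length slope as a covariate 2 and 7, so that the larger count changed sides. Of 23 immediate early genes 4 were above 0 and 5 below, of 22 genes of insulin-like growth factor signalling and fetal growth 4 and 3, and of 18 genes of NAD and sirtuin metabolism 3 and 3. The growth factor binding protein Igfbp5 differed by −1.96 ± 0.33 (adjusted p = 0.000167) and the transcription factor Jun by −1.27 ± 0.17 (adjusted p = 1.92e-05). Among cell markers, the counts above and below 0 were 2 and 3 of 12 for cardiomyocytes, 0 and 2 of 8 for endocardium, 0 and 2 of 6 for lymphatic endothelium, and 2 and 2 of 8 for smooth muscle. For epicardium they were 4 and 1 of 11 with a median of 0.28. The epicardial median turned to −0.59 (2 above and 3 below) without the libraries over 100 CPM of the other chamber's light chain and to −0.49 with ventricular Myl7 as a covariate. The counts were 2 and 0 of 8 for neutrophils, 2 and 2 of 6 for mast cells, and 1 and 0 of 14 for T and B cells. Erythroid markers gave 1 and 0 of 8, platelet markers 1 and 0 of 6, Schwann cell markers 0 and 1 of 8, lung markers 1 and 0 of 5 and skeletal muscle markers 2 and 0 of 8, and 3 thymocyte markers gave 0 in edgeR, DESeq2 and limma, with 0 at an unadjusted p under 0.05. With the length slope as a covariate the cardiomyocyte counts were 0 and 6, and their median went from 0.19 to −0.36. Skeletal muscle markers gave 1 and 2 with that covariate, and lung markers 0 and 1.

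**Figure D5:**
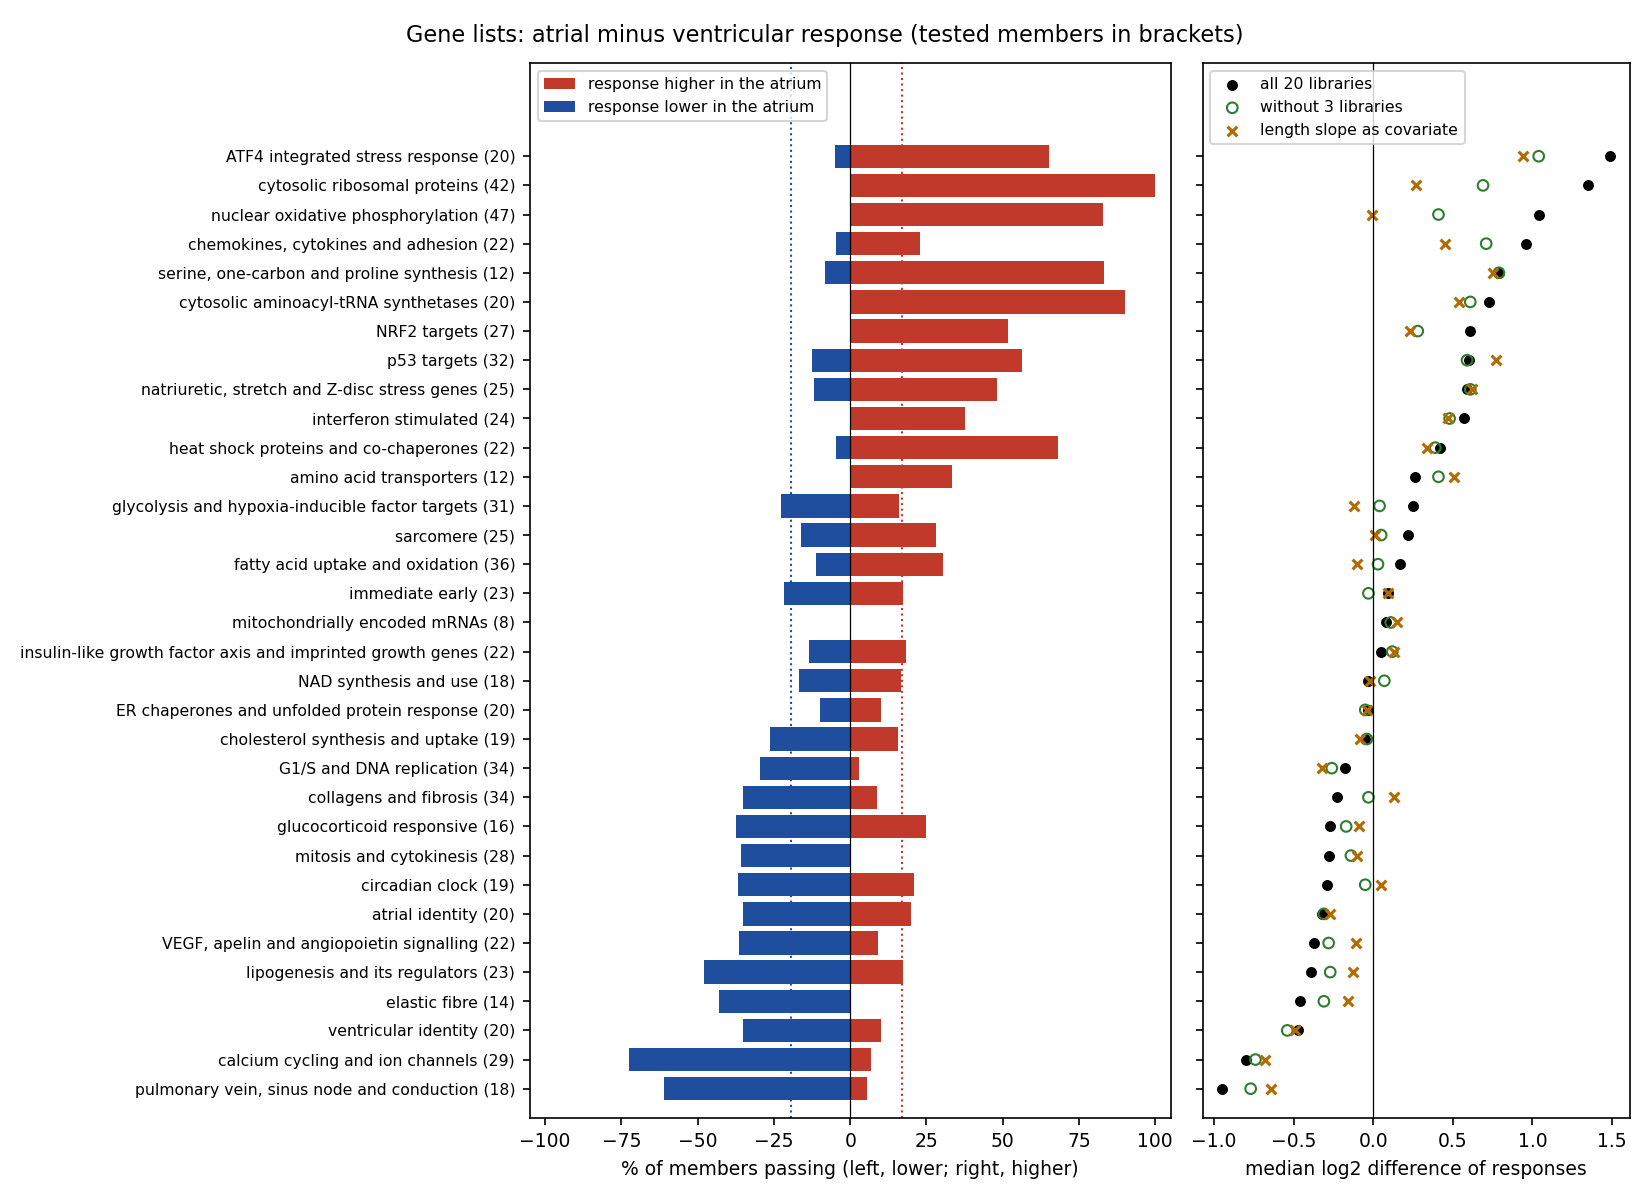
Left, the share of tested members of 33 gene lists (members in brackets) whose difference of responses passed above 0 (red, to the right) or below 0 (blue, to the left), with dotted lines at the shares over all genes, 17.0% and 19.5%. Right, the median difference of each list (log2) with all 20 libraries, without the 3 libraries of steepest length slope and with the slope as a covariate. The ribosomal and oxidative phosphorylation lists move most between these, and the ATF4, p53 and calcium lists keep their side.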

How the data were processed

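RNA of left atria and left ventricles of newborn mice was sequenced from stranded libraries of polyadenylated RNA, per the labels' protocols, which name a different RNA extraction kit from the series' design text. The authors deposited raw read counts per gene for each library. The tools listed per the submitters' processing notes are STAR 2.7.6a, featureCounts of Subread 2.0.1, Salmon 1.3.0 and fastp 0.20.1, and the genome build is GRCm38.p6. Which gene annotation was counted, and whether strand was used, is not given in the sources used here. Groups came from the sample titles.

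The files list 55367 genes, of which 16598 passed edgeR's filterByExpr. edgeR 4.0.16 (R 4.3.3; TMM scaling, robust quasi-likelihood test) fitted a 4-group model to all 20 libraries and tested the difference of responses at an adjusted p under 0.05 (Benjamini-Hochberg). The common biological coefficient of variation was 0.183. The nearest pair of libraries within a group differed by a chi-square per degree of freedom of 13.3, so none was treated as a duplicate. P-values measure the spread between the libraries of each group. On simulated data of 16417 genes the test recovered 26.9%, 70.1% and 92.4% of genes changed by 1.5-, 2- and 4-fold, and 4.55% of its 132 calls were false. The simulated counts were drawn independently for each gene. They held none of the differences between libraries in length slope, Y-linked reads or the other chamber's light chain. That false share therefore does not carry over to the calls in the data. Exon lengths came from GENCODE M21 and covered 98.2% of the genes tested. Promoters came from RefSeq. The motifs were chosen after the values were seen.

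The comparison, its 33 pathway lists and its 20 marker lists were chosen with earlier results of these data known. Named genes are those with the 12 highest and 12 lowest differences, the 10 largest opposite differences each way, 6 each way moved in the ventricle alone and 5 each way moved alike in both chambers, all with at least 5 CPM in 1 group, up to 4 members of each list with the smallest p, and a fixed set of 12 heart genes. Predicted gene models are counted but not named, and some genes of this rule are not reported here. Atp2a2, Fgf13, Trim55, Sspn, Slc40a1, Ror2, Lpar3, Mgmt, Ifitm3, Pcolce, Ccdc68, Cpeb1, Mybpc2, Chac1, Ddit3, Atf3, Casq2 and Fgf21 were chosen after their values were seen. Alternatives were other scalings, filters and tools (DESeq2 1.42.0, limma 3.58.1), covariates, a replicate block and libraries left out. Leaving out libraries over 100 CPM of the other chamber's light chain (Myl7 in ventricles, Myl2 in atria) was added after seeing the data. That setting leaves 5 hyperoxic atria, 4 room-air atria, 4 hyperoxic ventricles and 2 room-air ventricles.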

Additional observations from a re-analysis of the deposited data

Results flagged for a closer look

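The responses of the chambers differed by the test of the difference itself in 6060 genes, and 275 genes passed in opposite directions. Within groups of 5, the highest or lowest library was checked for a gap to the next that is large for the range of its group, in 116 groups of 29 genes. Chance gives such a gap in about 1 of 20 groups, and 9 of the 116 had one.

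Uts2b was 0.0597 CPM in hyperoxic ventricle 1 and had no reads in the other 4. Slc7a11 was 2.76 CPM in hyperoxic atrium 1, where the next highest was 1.94 CPM. Cdkn1a was lowest in hyperoxic ventricle 2, at 48 CPM against 70.4 CPM or more in the others. Srxn1 was 23 CPM in hyperoxic ventricle 4 (next 15 CPM) and 16.3 CPM in room-air ventricle 4 (next 13.2 CPM). Gja5 was 28.2 CPM in hyperoxic ventricle 2 (next 23.7 CPM) and 26.7 CPM in room-air ventricle 4 (next 19.4 CPM). Irx4 was 1.45 CPM in room-air atrium 1 and at most 0.026 CPM in the other room-air atria. Vtn was 12.9 CPM in hyperoxic ventricle 2, close to the lowest room-air ventricle, and at most 8.5 CPM in the other hyperoxic ventricles. Hyperoxic ventricle 2 and room-air ventricle 4 stood apart for 3 and 2 of these genes.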

How the results depend on the processing

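The direction of the larger share was not stable: 46.6% of the passing genes were above 0, and 54.4% under upper-quartile scaling. The number of passing genes stayed between 4442 and 7055 outside the slope covariate, which gave 2628 (1111 above and 1517 below 0), and 2428 (1022 and 1406) with the Y-linked counts added. Without the 3 libraries of steepest slope 1866 were above 0. At least 2-fold were 2069. Leaving out single libraries gave 5146 to 6645 passing genes, with 2990 above and 2260 below 0 without hyperoxic ventricle 5, and over the 20 libraries 2366 to 3081 above and 2260 to 3564 below 0.

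Opposite genes (121 with the atrium up and 154 with it down) moved most. Without a filter they were 133 (50 and 83), in DESeq2 540 (323 up) and in limma 470 (290 down). With the slope covariate 53 had the atrium up. With Y-linked counts in the model 2 were left (1 and 1), and with the slope added 18 (1 and 17). With ventricular Myl7 as a covariate they were 17 (10 and 7), among libraries richer in Y-linked than in Xist reads, which hold 1 hyperoxic atrium, 70 (21 and 49), and without libraries over 100 CPM of the other chamber's light chain 100 (60 and 40). At least 1.5-fold in each chamber were 87. Leaving out single libraries gave 110 (without hyperoxic ventricle 5) to 414 (without hyperoxic atrium 5), 44 (without room-air ventricle 4) to 206 with the atrium up and 63 to 208 with it down. The cause was not tested.

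Same-numbered atria and ventricles correlated in their deviations by −0.06 to 0.56, over 0.1 in 5 of 9 pairs, and 4 matched best. These values do not settle whether the numbers pair the samples, and the main fit used no pairs. In all 9 pairs both libraries were on the same side of the Y-linked to Xist ratio, on which all room-air libraries agree. With a replicate block by oxygen level and number 6185 genes passed (2710 above and 3475 below 0). With a replicate block by number alone 6890 passed (3060 and 3830), and 697 were opposite (363 and 334).

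Irx4 ranged from −4.97 to 0.68 with single libraries left out, turning to 0.68 without room-air atrium 1 and to 0.61 without the libraries over 100 CPM of the other chamber's light chain. In mean CPM the difference turned to 3.17 for Ankrd37 and 3.61 for Vtn. Among named genes that did not pass, Casq2, Atf3, Fgf21, Vegfa and Myl7 passed in 1 or more of 35 other settings. Spp1, Gpnmb, Scd1 and Myl2 did not pass in any setting that gave a value. Depth limits the low genes: Uts2b, Cacng6 and Irx4 rest on 2 to 52 reads in a chamber.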
